A study of Mus musculus with 6 samples.

Results

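The genes described here encode the enzymes of the lower part of glycolysis and lactate dehydrogenase: the aldolases Aldoa and Aldoc, phosphoglycerate kinase Pgk1, the phosphoglycerate mutases Pgam1 and Pgam2, the enolases Eno1 and Eno3, pyruvate kinase Pkm, and the lactate dehydrogenase subunits Ldha and Ldhb. The members were listed by name, and each is represented by the probe set annotated to that gene alone that had the highest mean over the 6 arrays. Of 10 listed genes, 9 were measured in this way, out of 18193 genes in all. No probe set in the annotation used here names Eno1 alone, so Eno1 was not analysed here and Eno3 is described without its general partner.

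Isolated heart cells of C57BL/6J mice gave total RNA that was measured on Affymetrix arrays with a single label, 2 for each of 3 groups. The neonatal groups are cardiomyocytes and cardiac fibroblasts from mixed-sex hearts at postnatal day 1, separated on Percoll. The adult group is cardiomyocytes from male hearts at 8 weeks, released by Langendorff perfusion. Age, sex and isolation therefore cannot be told apart between adult and neonatal cells. Between adult cardiomyocytes and neonatal fibroblasts, cell type cannot be told apart from these either. Cells were described as used fresh, while another label describes a plating step with a mitochondrial dye to check that the fibroblasts held no cardiomyocytes. Nothing in the labels ties the 2 arrays of a group to separate litters or preparations, and p-values therefore rest on a spread between arrays that may be technical.

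Groups follow the source names; for both neonatal groups, the title of replicate 1 disagrees with its source name and gives the opposite cell type. The mean log2 value of 8 cardiomyocyte markers (Myh6, Tnnt2, Tnni3, Actc1, Ryr2, Pln, Myl2 and Ttn) was 13.91 and 13.60 in neonatal cardiomyocytes, 8.29 and 11.27 in fibroblasts, and 14.04 and 14.01 in adult cardiomyocytes. That of 8 fibroblast markers was 10.43 and 10.03, then 12.92 and 12.32, then 8.33 and 10.04. That of 8 leukocyte markers was 7.24 and 5.73, then 11.83 and 9.01, then 6.65 and 8.05. That of 8 endothelial markers was 8.87 and 7.71, then 6.08 and 6.99, then 8.38 and 9.03, with all 8 means higher in neonatal cardiomyocytes than in fibroblasts and 2 called higher in adult cells than in fibroblasts; their part in the results was not tested. Fibroblast replicate 2 thus carried more cardiomyocyte marker signal than fibroblast replicate 1, and replicate 1 more leukocyte signal. Tnni3, which encodes cardiac troponin I, measured 6.07 on fibroblast replicate 1 and 10.86 on replicate 2, against 13.58 to 14.06 on the cardiomyocyte arrays. All 8 cardiomyocyte markers were higher on both neonatal cardiomyocyte arrays than on both fibroblast arrays, and all 8 fibroblast markers lower. The marker values of the neonatal replicate 1 arrays thus go with their source names and not with their titles. In mixed preparations, fewer cells of a type and less RNA per cell cannot be told apart.

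As background, the lower part of glycolysis splits a sugar diphosphate and carries the pieces to pyruvate, with ATP made by phosphoglycerate kinase and pyruvate kinase. Lactate dehydrogenase then interconverts pyruvate and lactate; its tetramers mix the Ldha subunit, prominent in tissues that release lactate, and the Ldhb subunit, prominent in heart, which takes up and oxidises lactate. Several steps have a widely used isoform and a muscle isoform: Pgam1 and Pgam2, Eno1 and Eno3. Many of these genes are classic targets of the hypoxia-inducible factor HIF1, and the heart relies more on glycolysis before and just after birth than in adult life.

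The 9 genes fell into patterns that the isoform names describe in part. Ldhb, Pgam2 and Eno3 had high values on every cardiomyocyte array, neonatal and adult, and lower values on both fibroblast arrays. Pgam1 had its lowest values on the adult arrays. Aldoc, Pgk1 and, over a narrow range, Ldha had their highest values in neonatal cardiomyocytes. Values are log2 RMA values, so a difference of 1 is a 2-fold change, and they compare a gene between groups; levels of different genes are not set against each other, because probes bind with different strength.

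**Figure D1:**
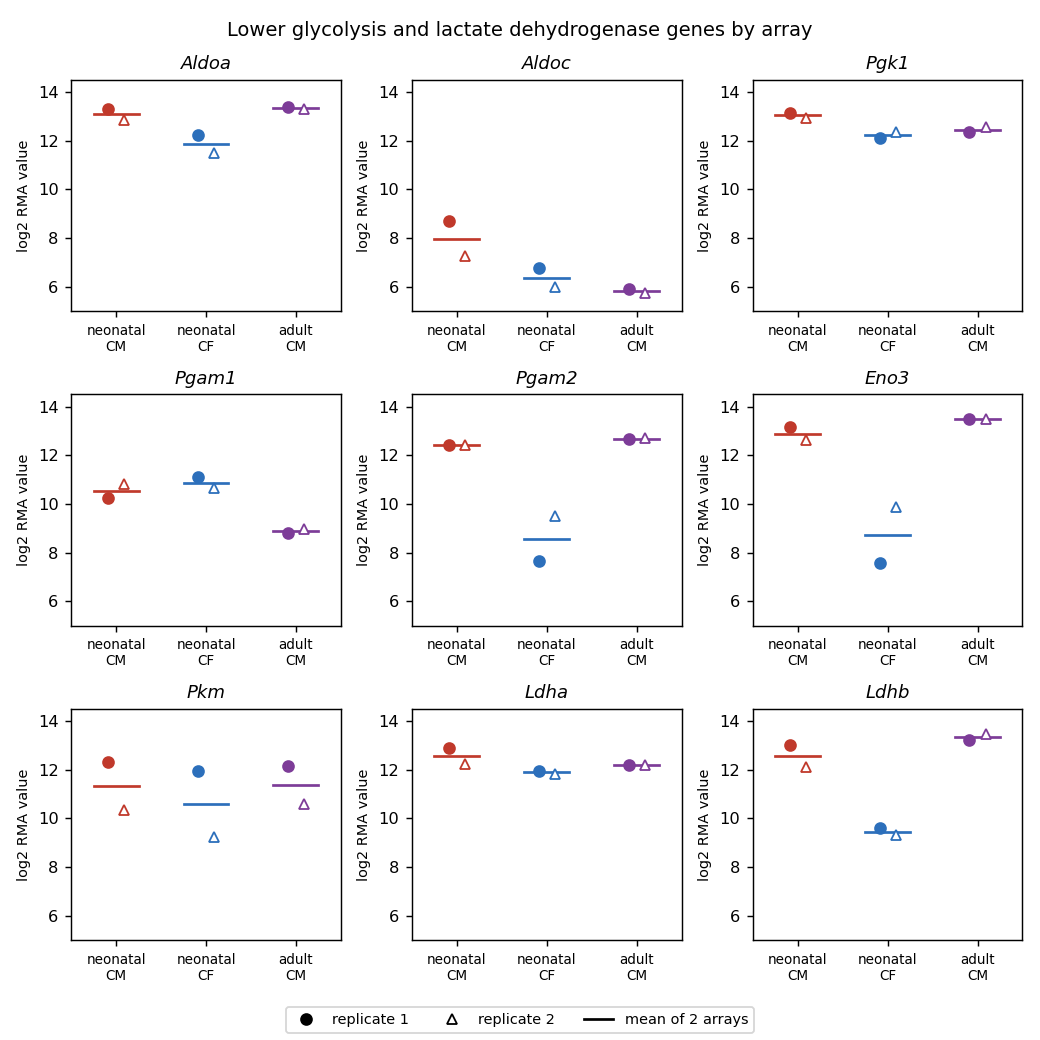
Log2 RMA value of each measured gene on each array, with filled circles for replicate 1, open triangles for replicate 2 and bars for the mean of the 2 arrays of a group (CM, cardiomyocytes; CF, fibroblasts). Ldhb, Pgam2 and Eno3 lie lowest on the fibroblast arrays, Pgam1 lies lowest on the adult arrays, and Pkm differs more between replicates than between groups.

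Ldhb rose in neonatal and in adult cardiomyocytes over fibroblasts. Ldhb measured 13.02 and 12.12 in neonatal cardiomyocytes, 9.61 and 9.31 in fibroblasts, and 13.21 and 13.46 in adult cardiomyocytes. Every cardiomyocyte array was above both fibroblast arrays, and the adult arrays were above the neonatal ones. The difference between the neonatal cell types was 3.11 ± 0.34 (SE), 8.63-fold, with a limma adjusted p of 0.0424. Between adult cardiomyocytes and fibroblasts it was 3.87 ± 0.34 (14.6-fold, adjusted p = 0.0067), and between adult and neonatal cardiomyocytes 0.76 ± 0.34, which did not pass (adjusted p = 0.262). The other 3 probe sets of Ldhb gave 2.97 to 3.32 for the neonatal cell types and 3.91 to 4.08 for adult cells against fibroblasts. The call between the neonatal cell types was close to the threshold of 0.05: with the replicate number as a block its adjusted p was 0.0595, without fibroblast replicate 1 or 2 it was 0.141 and 0.0644, without neonatal cardiomyocyte replicate 1 it was 0.167, and without either adult array 0.158, with differences between 2.66 and 3.26. It kept its side of the threshold without neonatal cardiomyocyte replicate 2. Without both neonatal replicate 1 arrays the difference was 2.81 (adjusted p = 0.308) and that of adult cells against fibroblasts 4.02 (adjusted p = 0.0452).

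Ldha, the subunit named for skeletal muscle, varied over a narrower range. It measured 12.89 and 12.25 in neonatal cardiomyocytes, 11.96 and 11.83 in fibroblasts, and 12.18 and 12.20 in adult cardiomyocytes. The neonatal cardiomyocyte arrays were the highest and the fibroblast arrays the lowest, without overlap, but the span over all 6 arrays was 1.05. Neonatal cardiomyocytes differed from fibroblasts by 0.67 ± 0.25 (adjusted p = 0.288), with a 95% interval of 0.03 to 1.32. Adult differed from neonatal cardiomyocytes by -0.38 ± 0.25 (adjusted p = 0.416; 95% interval -1.02 to 0.27), and by -0.06 without neonatal cardiomyocyte replicate 1.

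The upstream sequences of the LDH and PGAM partners are shown because members of each couple differed in how they varied over the groups. Each run is the 250 bases before the transcription start in RefSeq's mouse assembly GRCm38.p6, read on the gene's strand; for Ldha it is the first of 2 listed starts. Capitals mark 2 motifs searched on both strands: ACGTG, the core of the hypoxia response element, with CACGTG, the E-box that contains it, and the MEF2 consensus bound by muscle MEF2 factors.

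Ldha, chr7:46845554-46845803, plus strand: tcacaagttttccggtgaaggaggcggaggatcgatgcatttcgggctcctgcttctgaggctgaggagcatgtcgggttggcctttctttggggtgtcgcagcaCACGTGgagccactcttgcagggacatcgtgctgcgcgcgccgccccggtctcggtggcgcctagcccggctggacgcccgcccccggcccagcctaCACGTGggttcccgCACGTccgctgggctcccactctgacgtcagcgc

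Ldhb, chr6:142507958-142508207, minus strand: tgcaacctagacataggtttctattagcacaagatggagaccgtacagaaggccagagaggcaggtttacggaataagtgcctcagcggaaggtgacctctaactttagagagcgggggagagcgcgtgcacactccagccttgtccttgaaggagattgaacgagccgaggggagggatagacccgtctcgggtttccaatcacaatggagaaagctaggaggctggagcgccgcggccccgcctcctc

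Pgam1, chr19:41911621-41911870, plus strand: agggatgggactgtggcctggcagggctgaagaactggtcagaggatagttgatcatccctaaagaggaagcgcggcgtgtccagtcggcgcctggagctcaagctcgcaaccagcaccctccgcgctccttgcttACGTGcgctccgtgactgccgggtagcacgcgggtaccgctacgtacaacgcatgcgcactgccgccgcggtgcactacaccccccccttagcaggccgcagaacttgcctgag

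Pgam2, chr11:5803797-5804046, minus strand: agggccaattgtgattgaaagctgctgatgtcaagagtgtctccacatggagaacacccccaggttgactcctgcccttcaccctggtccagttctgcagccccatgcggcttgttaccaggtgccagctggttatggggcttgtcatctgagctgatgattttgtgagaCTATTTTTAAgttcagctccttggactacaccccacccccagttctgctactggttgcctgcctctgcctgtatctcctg

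The Ldha run holds ACGTG at 3 places, of which 2 lie within a CACGTG box and 1 outside. The window at the other listed Ldha start holds no ACGTG and no MEF2 consensus match. The Ldhb run holds none of these motifs. Pgam1 has 1 ACGTG and no MEF2 consensus match, and Pgam2 has 1 MEF2 consensus match, at position -80 from the transcription start, and no ACGTG. Over windows of 300 bases, which add 50 bases after the start, 19.6% of 32851 RefSeq promoters held ACGTG, 7.15% CACGTG and 3.19% the MEF2 consensus. Of the members' 14 windows, 7 held ACGTG, 1 CACGTG and 1 the MEF2 consensus. The 7 belong to 6 genes (Aldoa, Aldoc, Pgk1, Pgam1, Pkm and Ldha), and the 2 Aldoa windows among them overlap. TNAAGGTCA, a site of the estrogen-related receptors, was in 0 of the members' 14 windows and in 1.28% of all. A match describes letters and not binding.

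The phosphoglycerate mutases differed between groups in opposite directions, with Pgam2 higher and Pgam1 lower in adult cardiomyocytes than in fibroblasts. Pgam2, the muscle isoform, measured 12.41 and 12.43 in neonatal cardiomyocytes, 7.63 and 9.51 in fibroblasts, and 12.65 and 12.70 in adult cardiomyocytes. The groups did not overlap, and the fibroblast arrays lay 1.87 apart. Adult cardiomyocytes were 17.2-fold above fibroblasts (4.11 ± 0.60, adjusted p = 0.0142). Neonatal cardiomyocytes were 14.4-fold above fibroblasts (3.85 ± 0.60), which missed the threshold with an adjusted p of 0.0650 and passed it without fibroblast replicate 2 (4.78, adjusted p = 0.0103). Without both neonatal replicate 1 arrays the 2 differences were 3.17 (adjusted p = 0.0452) and 2.92 (adjusted p = 0.300). Adult and neonatal cardiomyocytes differed by 0.26, with a 95% interval of -1.27 to 1.79.

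Pgam1, the general isoform, measured 10.23 and 10.81 in neonatal cardiomyocytes, 11.11 and 10.64 in fibroblasts, and 8.82 and 8.98 in adult cardiomyocytes. The neonatal cell types overlapped and both adult arrays lay below every neonatal array. Pgam1 fell by 1.97 on the log2 scale in adult cardiomyocytes against fibroblasts (± 0.28 SE, 3.92-fold lower, adjusted p = 0.0137). Against neonatal cardiomyocytes the adult difference was -1.62 ± 0.28 (3.07-fold lower), with an adjusted p of 0.0622 that missed the threshold. Neonatal cardiomyocytes and fibroblasts differed by -0.36 (95% interval -1.07 to 0.36), and by 0.17, the opposite sign, without both neonatal replicate 1 arrays. The call against fibroblasts missed the threshold without fibroblast replicate 1 (-1.74, adjusted p = 0.0621) or without adult replicate 1 (0.0956) or 2 (0.0708), and without both neonatal replicate 1 arrays (-1.74, 0.0614).

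Eno3, the muscle enolase, had the widest range of the 9 genes, 5.92 log2 units. It measured 13.17 and 12.61 in neonatal cardiomyocytes, 7.57 and 9.89 in fibroblasts, and 13.48 and 13.50 in adult cardiomyocytes. Every cardiomyocyte array was above both fibroblast arrays. The rise in adult cardiomyocytes over fibroblasts was 27.1-fold (4.76 ± 0.76, adjusted p = 0.0167), and the difference between the neonatal cell types, 17.9-fold (4.16 ± 0.76), had an adjusted p of 0.0812. Without fibroblast replicate 2 the latter was 5.32 and passed (adjusted p = 0.0128). Without both neonatal replicate 1 arrays the 2 differences were 3.60 (adjusted p = 0.0452) and 2.72 (adjusted p = 0.300). The adult arrays were above the neonatal cardiomyocyte arrays by 0.60 (95% interval -1.32 to 2.52).

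The calls of Ldhb, Pgam2 and Eno3 for adult cells against fibroblasts each missed the threshold when either adult array was left out, with adjusted p between 0.0522 and 0.110 and differences of 3.74 to 4.77. Between the fibroblast arrays, Pgam2, Eno3 and the cardiomyocyte markers differed in the same direction. On fibroblast replicate 2, Pgam2 was higher than on replicate 1 by 1.87, Eno3 by 2.32 and the mean of the 8 cardiomyocyte markers by 2.98, while Ldhb differed by -0.30 and Aldoa was lower (11.50 against 12.23). The part of remaining cardiomyocytes in the fibroblast values was not tested.

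**Figure D2:**
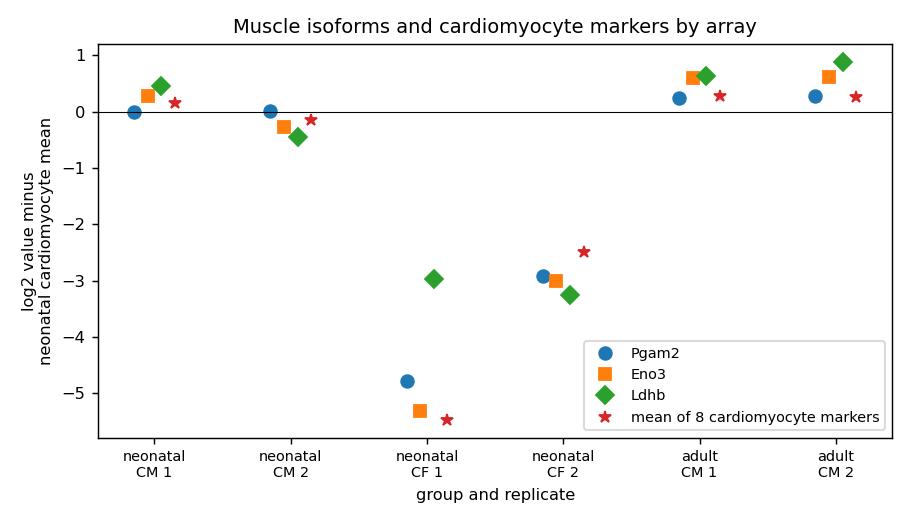
Log2 value of Pgam2, Eno3 and Ldhb and the mean of 8 cardiomyocyte markers on each array, relative to the neonatal cardiomyocyte mean (CM, cardiomyocytes; CF, fibroblasts). Pgam2, Eno3 and the markers are nearer to 0 on fibroblast replicate 2 than on replicate 1, while Ldhb is at -2.96 and -3.26.

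Of the aldolases, Aldoa, the main muscle form, rose in adult cardiomyocytes over fibroblasts by 1.48 ± 0.31 (2.79-fold, adjusted p = 0.0311). It measured 13.30 and 12.84 in neonatal cardiomyocytes, 12.23 and 11.50 in fibroblasts, and 13.40 and 13.29 in adult cardiomyocytes. Cardiomyocytes of the 2 ages overlapped and both lay above fibroblasts; the neonatal cell types differed by 1.21 (adjusted p = 0.151). The other 4 probe sets gave 1.08 to 1.99 for the called comparison. The call was lost with the probe set of largest SD (1.94, adjusted p = 0.0636), without fibroblast replicate 2 (1.12, adjusted p = 0.0884), without adult replicate 1 (1.43, 0.156) or 2 (1.54, 0.115), and without both neonatal replicate 1 arrays (1.84, 0.0577). The Aldoa probe sets, and the one used for Ldhb, are of the type that the array's naming marks as able to bind related sequences, and glycolytic genes have processed pseudogenes, so their signal may include such copies.

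Aldoc, the aldolase known from brain, measured 8.71 and 7.24 in neonatal cardiomyocytes, 6.74 and 5.97 in fibroblasts, and 5.91 and 5.73 in adult cardiomyocytes. The groups did not overlap, in that order. Adult cardiomyocytes differed from neonatal ones by -2.15 ± 0.54 (4.45-fold lower, adjusted p = 0.112), and neonatal cardiomyocytes from fibroblasts by 1.62 (adjusted p = 0.241). With neonatal cardiomyocyte replicate 1 or 2 left out these were -1.42 or -2.89, and 0.88 or 2.35. The second Aldoc probe set stayed between 3.51 and 4.26 on the 6 arrays, on each below that array's lower quartile over all probe sets (4.19 to 4.37). Its differences, 0.44 and -0.14 for the same comparisons, are near the floor and carry no direction.

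Pgk1 had the narrowest span, 1.03. It measured 13.15 and 12.94 in neonatal cardiomyocytes, 12.11 and 12.35 in fibroblasts, and 12.35 and 12.56 in adult cardiomyocytes. Neonatal cardiomyocytes were above both other groups, which overlapped. The differences were 0.81 ± 0.19 from fibroblasts (1.75-fold higher, adjusted p = 0.134) and -0.59 ± 0.19 for adult against neonatal cardiomyocytes (adjusted p = 0.169). All 3 Pgk1 probe sets had these signs.

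Pkm, whose transcript is spliced into a muscle and brain form and a form of proliferating cells that its single probe set does not separate, differed between replicates. It measured 12.32 and 10.34 in neonatal cardiomyocytes, 11.97 and 9.26 in fibroblasts, and 12.15 and 10.57 in adult cardiomyocytes. Replicate 1 was higher by 1.98, 2.71 and 1.57 in the 3 groups, against group differences of at most 0.75. Gaps over 1.5 towards replicate 1 in every group were found for 22 of 18193 genes (0.121%). No Pkm difference passed; without the replicate number in the fit the 95% interval was -2.25 to 3.67 between the neonatal cell types and -2.92 to 2.995 between adult and neonatal cardiomyocytes. Within a replicate number, neonatal cardiomyocytes were above fibroblasts by 0.35 and 1.08, and adult differed from neonatal cardiomyocytes by -0.17 and 0.24. With the number as a block the neonatal difference was 0.71 ± 0.32 (SE), with an adjusted p of 0.319. Of the other members, Aldoa and Aldoc also had higher values on replicate 1 in each group, by 0.11 to 1.47.

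Between neonatal cardiomyocytes and fibroblasts, 8 of 9 members had a higher mean in cardiomyocytes (47.4% of all genes did), and the median difference was 1.21 against -0.02 over all genes. Ldhb was the 1 gene called higher and 0 were called lower in limma; 7 members had unadjusted p under 0.05, as did 16.3% of all genes. Of all genes, 0.676% were called higher and 0.143% lower. The arrays did not overlap for 7 members higher in cardiomyocytes and 0 lower, while 22.3% of all genes were higher and 23.2% lower in this way.

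Between adult and neonatal cardiomyocytes, 0 of 9 members were called in limma and 3 had unadjusted p under 0.05 (Aldoc, Pgk1 and Pgam1), as did 22.8% of all genes. Of all genes, 1.08% were called higher and 1.22% lower (196 and 222 genes, against 260 and 196 after the arrays were normalized by quantiles again). The mean was higher in adult cells for 5 of 9 members and 57.4% of all genes, and the members' median was 0.04 against 0.09 over all genes. Arrays did not overlap for Ldhb, Pgam2 and Eno3 in the higher direction and for Pgam1, Aldoc, Pgk1 and Ldha in the lower; over all genes 33.9% were higher and 23.8% lower in this way.

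Between adult cardiomyocytes and neonatal fibroblasts, Ldhb, Eno3, Pgam2 and Aldoa rose and Pgam1 fell, so 5 of 9 members changed. Of all genes, 10.1% were called higher and 11.0% lower, and the median was 0.75 for the members and 0.09 for all genes. The mean was higher in adult cells for 7 of 9 members and 55.9% of all genes, and unadjusted p was under 0.05 for 5 members and 37.0% of all genes. Arrays did not overlap for 5 members higher and 2 lower, against 37.8% and 30.2% of all genes. The comparisons share groups: adult and neonatal cardiomyocytes are each set against the same fibroblast arrays.

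**Figure D3:**
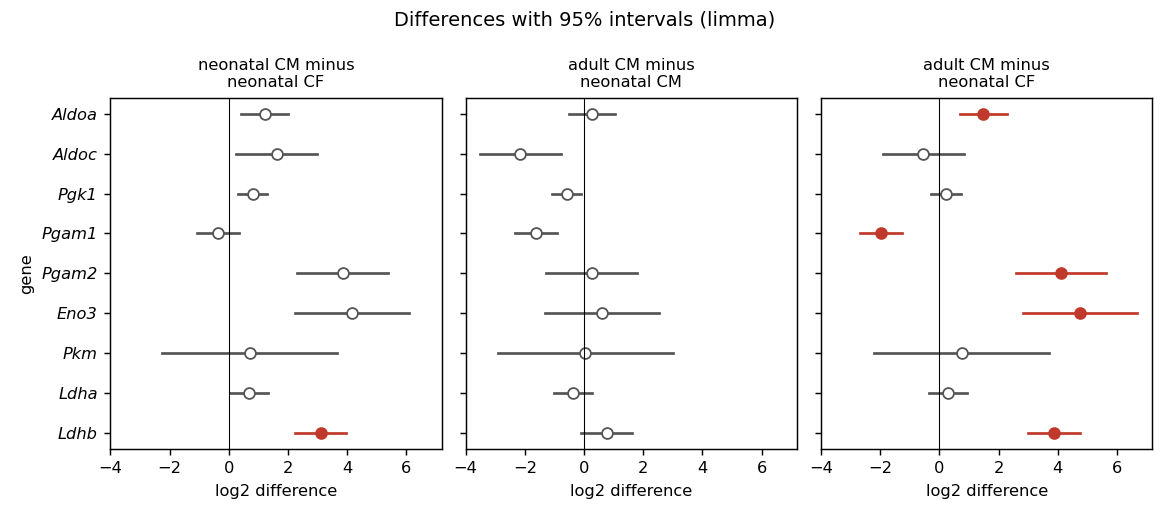
Log2 difference of each gene in the 3 comparisons, with the 95% interval from limma; filled red points passed the adjusted p of 0.05 and open grey points did not (CM, cardiomyocytes; CF, fibroblasts). Ldhb passed in both comparisons with fibroblasts, and Pgam1 lies below 0 in each.

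Isoforms of the same step were compared within each array, which shows whether the 2 genes changed unequally between groups, not which is more abundant. The Ldhb minus Ldha value was 0.13 and -0.13 in neonatal cardiomyocytes, -2.34 and -2.52 in fibroblasts, and 1.02 and 1.26 in adult cardiomyocytes. The groups did not overlap and the SD within a group was at most 0.18. The balance lay 2.44 further towards Ldhb in neonatal cardiomyocytes than in fibroblasts, by 2.48 on the replicate 1 arrays and 2.40 on the replicate 2 arrays. It was 1.14 further towards Ldhb in adult than in neonatal cardiomyocytes. Over the 4 Ldhb probe sets the first value ran from 2.30 to 2.65 and the second from 1.14 to 1.32.

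The Pgam2 minus Pgam1 value was 2.18 and 1.63 in neonatal cardiomyocytes, -3.47 and -1.13 in fibroblasts, and 3.83 and 3.72 in adult cardiomyocytes. Again the groups did not overlap. The balance lay 4.20 further towards Pgam2 in neonatal cardiomyocytes than in fibroblasts, by 5.65 on the replicate 1 arrays and 2.76 on the replicate 2 arrays. Without fibroblast replicate 1 it was 3.03 and without fibroblast replicate 2 it was 5.37. It lay 1.88 further in adult than in neonatal cardiomyocytes. In the latter comparison the difference was -1.62 for Pgam1 and 0.26 for Pgam2.

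The Aldoc minus Aldoa value was -4.59 and -5.60, then -5.48 and -5.53, then -7.49 and -7.55 in the same order of groups. The neonatal groups overlapped and the adult arrays were lower by 2.43 than neonatal cardiomyocytes. The shift rests on 1 Aldoc probe set, since the other is near the floor.

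In exact permutation tests over the 3 groups, two-sided, p was 0.0667 for the Ldh and Pgam balances and 0.200 for the aldolases (0.100, 0.100 and 0.200 after Benjamini-Hochberg adjustment over 3 comparisons of isoforms). The smallest p that 90 arrangements of the arrays allow is 0.0667, and 2 arrays against 2 cannot go below 0.333, so these designs cannot reach 0.05. With the groups that the titles give, the neonatal Ldh balance differed by -0.041 and the Pgam balance by -1.44.

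**Figure D4:**
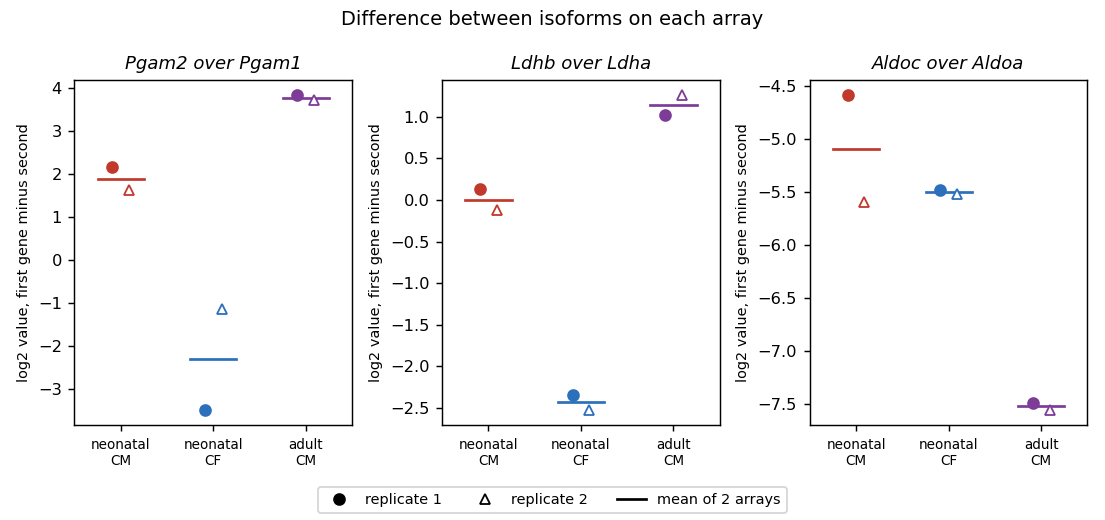
Log2 value of the first isoform minus that of the second on each array, for phosphoglycerate mutase, lactate dehydrogenase and aldolase; filled circles are replicate 1, open triangles replicate 2 and bars group means (CM, cardiomyocytes; CF, fibroblasts). The position of 0 has no meaning because the probes differ; the Ldhb minus Ldha balance is higher by 2.44 in neonatal cardiomyocytes than in fibroblasts and by a further 1.14 in adult cardiomyocytes.

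Of the same enzyme families, 7 other genes were measured (Pgk2, Eno2, Eno4, Pklr, Ldhc, Ldhd and Bpgm). Ldhd, the mitochondrial D-lactate dehydrogenase, rose in adult cardiomyocytes, at 8.37 ± 0.16 (SD, n = 2) against 6.16 ± 0.01 in neonatal cardiomyocytes (2.21, adjusted p = 0.0198) and 6.21 ± 0.08 in fibroblasts (2.16, adjusted p = 0.0059). The other 6 were not called in limma in any comparison, and Ldhd was the 1 member of this list with an unadjusted p under 0.05 in those 2 comparisons. Eno2, the neuronal enolase, measured 5.94 on fibroblast replicate 1 and between 4.14 and 4.59 on the other 5 arrays.

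In the list labelled upper glycolysis here 11 of 14 genes were measured, from the glucose transporters Slc2a1 and Slc2a4 to the isomerase Tpi1. Gpi1, Pfkfb1 and Gapdh were not analysed here. Tpi1 and Gapdh act on the pieces that aldolase makes, so the label fits the list only in part. Between the neonatal cell types 0 were called in limma, 6 had unadjusted p under 0.05 (16.3% of all genes), and the median was 1.01; the muscle phosphofructokinase Pfkm differed by 3.12 (adjusted p = 0.0870). In adult against neonatal cardiomyocytes Slc2a4, the insulin-responsive transporter, rose by 2.35 (adjusted p = 0.0276) and Pfkfb2, which makes the activator of phosphofructokinase, by 2.19 (adjusted p = 0.0198), with a median of 0.23 over the list. Against fibroblasts, Pfkm (4.97), Slc2a4 (4.04), Pfkfb2 (2.95) and the hexokinase gene Hk2 (2.10) rose in adult cells. These are 4 of 11, while 10.1% of all genes were called higher.

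Of 18 measured genes of pyruvate and lactate use, Mdh1, the cytosolic malate dehydrogenase, rose in neonatal cardiomyocytes over fibroblasts (2.20, adjusted p = 0.0424, and 0.0595 with the replicate block), and the median was 1.10. The lactate carrier Slc16a1, at 12.07 ± 0.11 in neonatal cardiomyocytes and 9.64 ± 0.70 in fibroblasts, missed the threshold (2.43, adjusted p = 0.0604). In adult against neonatal cardiomyocytes Gpt, an alanine aminotransferase, rose by 2.40 (adjusted p = 0.0276). In adult cardiomyocytes against fibroblasts 10 of 18 rose and 1, the pyruvate dehydrogenase kinase Pdk3, fell (-2.19). Of all genes, 10.1% were called higher and 11.0% lower, and the list's median was 2.52. The 10 include Slc16a1 (2.94), the mitochondrial pyruvate carrier Mpc1 (2.50), the pyruvate dehydrogenase subunits Pdha1 (2.06) and Pdhb (2.75), and Pdk4 (6.03), which restrains that enzyme.

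Among 18 measured regulators, the estrogen-related receptor gene Esrrg (4.30, adjusted p = 0.0441) and the coactivator gene Ppargc1b (3.83, adjusted p = 0.0424) rose in neonatal cardiomyocytes over fibroblasts; with the replicate block the adjusted p were 0.0619 and 0.0595. Mlxipl, a glucose-responsive factor, rose in adult over neonatal cardiomyocytes (2.37, adjusted p = 0.0220). Against fibroblasts, 8 of 18 regulators rose and 3 fell in adult cells, while 10.1% of all genes were called higher and 11.0% lower. The 3 are Hif1a (-1.22) and the splicing factor genes Ptbp1 (-2.30) and Srsf3 (-1.08). With the replicate block Srsf3 missed the threshold (limma adjusted p = 0.0510). Ptbp1 is known to favour the Pkm form of proliferating cells, which the array does not resolve. The adult difference from neonatal cardiomyocytes was -1.25 for Hif1a (adjusted p = 0.0750) and -1.58 for Ptbp1 (adjusted p = 0.108). For Epas1, another hypoxia-inducible factor gene, it was 1.88 (adjusted p = 0.0684).

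Of 15 hypoxia-induced genes outside glycolysis, 0 were called between the neonatal cell types in limma (4 of 15 at unadjusted p under 0.05, against 16.3% of all genes), and their median was 0.11. The oxygen sensor gene Egln1 rose in adult over neonatal cardiomyocytes (1.85, adjusted p = 0.0310). Against fibroblasts, Egln1 (2.75), Bnip3 (2.95) and Egln3 (1.90) rose and Adm (-4.26) and Ero1a (-2.14) fell in adult cells. These are 3 of 15 called higher and 2 of 15 lower, against 10.1% and 11.0% of all genes.

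The calls in these 5 further lists were often lost when 1 array was left out. Each such fit leaves 1 array in a group and fewer residual degrees of freedom, so a lost call need not come from that array's values. The differences between the neonatal cell types do not use the adult arrays, yet their calls were lost without either one. Without adult replicate 1 no gene was called in limma in any comparison (2532, 2572 and 4591 genes had unadjusted p under 0.05). In adult against neonatal cardiomyocytes 0 of the lists' genes were called without adult replicate 2, without neonatal cardiomyocyte replicate 2 or without both neonatal replicate 1 arrays. Between the neonatal cell types 0 were called without either adult array, neonatal cardiomyocyte replicate 1, fibroblast replicate 1 or both neonatal replicate 1 arrays. Fewer genes of each list, and fewer of all genes, were called in adult cells against fibroblasts without both neonatal replicate 1 arrays. Each neonatal group then holds 1 array, so counts for the lists are not given here.

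**Figure D5:**
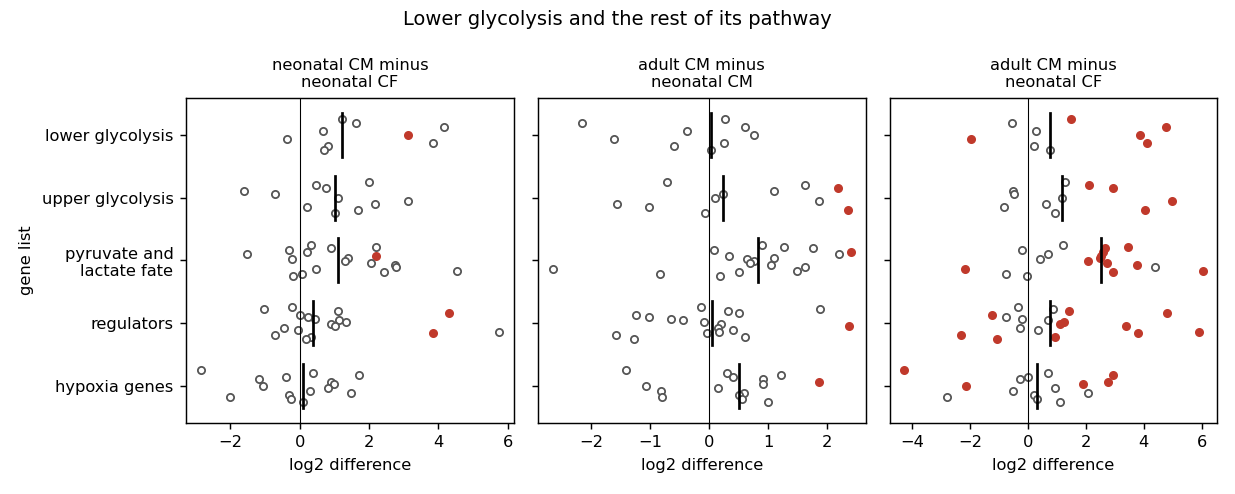
Log2 difference of each measured gene in the lower glycolysis list and 4 further lists, in the 3 comparisons; filled red points passed the adjusted p of 0.05, open grey points did not, and black bars are list medians (CM, cardiomyocytes; CF, fibroblasts). For adult cardiomyocytes against fibroblasts the median is 2.52 for pyruvate and lactate fate and 0.75 for lower glycolysis.

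The genes whose values over the 6 arrays followed a member most closely were found by Pearson correlation among 8939 genes with a range of at least 1 log2 unit. The 6 arrays are 2 of each of 3 groups, so the points are not independent and the values are a description. Eno3 was followed by the desmosomal gene Dsp, the ryanodine receptor Ryr2 and the fatty acid binding protein Fabp3 (r of 0.9999, 0.9997 and 0.9997), and Pgam2 by Pgm5, Mylk3 and Akap6 (0.9990, 0.9990 and 0.9988). For Ldhb they were Lyrm9, Cog6 and Trmt2b (0.9985 to 0.9971), for Pgam1 Arf3, Dpp3 and Slc30a5 (0.9993 to 0.9964), and for Ldha Grk3, Ryr3 and Glrx (0.9942 to 0.9914). Genes with r of at least 0.98 numbered 138 for Eno3, 120 for Pgam2, 85 for Ldhb, 76 for Pgam1 and 6 for Ldha.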

How the data were processed

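The deposited table holds log2 values for 45101 probe sets on 6 arrays, made by the authors with RMA (per the submitters' processing notes). RMA includes a background correction, quantile normalization and a summary over probes, and it can compress differences near the floor and the top of the range. Its version, a genome build and joint processing of the arrays are not given in the sources used here. In the platform annotation 34945 probe sets carry 1 gene symbol, 932 several and 9160 none, and 64 are controls; each of 18193 genes was represented by its probe set of highest mean. A model of 3 group means was fitted over the 6 arrays (limma 3.58.1, R 4.3.3) and tested two-sided with Benjamini-Hochberg adjustment over all genes and a threshold of 0.05; the fit had 3 residual degrees of freedom plus 2.18 from the moderated variance. The code was tested on simulated data. RMA gives no detection call, and the number of arrays limits the precision. Same-numbered arrays deviated together (r of 0.183 to 0.268 across genes for the 3 couples of groups), so the replicate number was also fitted as a block. Named genes were the members and the 3 genes closest in pattern to Ldha, Ldhb, Eno3, Pgam1 and Pgam2. Of the other listed genes, some past the threshold or largest in their list were named. Got1 (3.47), Pdk1 (3.78) and Gpd1 (2.66), called higher in adult cells against fibroblasts, are among those not named above. Members and lists were chosen with earlier results of these data known. Verbs of change refer to genes past the threshold. Alternatives covered grouping, arrays left out, probe set choice, scaling, dim genes, the variance prior and fits of 4 arrays.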

Additional observations from a re-analysis of the deposited data

How the results depend on the processing

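Calls changed more than directions did. Over the settings tried, 380 of 432 member differences kept direction and side of the threshold, 30 lost the call, 5 gained it and 17 changed sign. Most of these sign changes came with the groups that the titles give, and they are listed below. Only differences called in the main fit can lose a call: 1 between the neonatal cell types, and 4 higher and 1 lower in adult cells against fibroblasts. Most of the 432 were not called in the main fit, so the 380 are largely differences that stayed uncalled. Of 117 isoform differences 111 kept their sign. With 2 arrays a group, 3 residual degrees of freedom limit every test, and signal over background was not available. The enolase comparison was not run because Eno1 was not analysed here.

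Between the neonatal cell types 149 genes were called (59 with probe sets averaged, 384 among genes at or above the median gene, 248 with an intensity trend, 0 to 437 when 1 array was left out). None were called in limma with the titles' groups (232 at unadjusted p under 0.05), without both neonatal replicate 1 arrays (1461), with the replicate block (3678), with the probe set of largest SD (2770) or with the 4 arrays of these groups (2532). Lower glycolysis calls numbered 1, and 0 in those 5 settings and with averaged probe sets, 3 among genes at or above the median gene, 2 with the trend, and 0 to 2 with 1 array left out. Between adult and neonatal cardiomyocytes 418 genes were called, 114 with the titles' groups, 0 without both neonatal replicate 1 arrays (3845 at unadjusted p under 0.05), 164 with 4 arrays, and 0 to 164 with 1 array left out. Between adult cardiomyocytes and fibroblasts 3829 were called, 137 with the titles' groups, 717 without both neonatal replicate 1 arrays, and 0 to 3823 with 1 array left out; lower glycolysis calls were 5, then 0, then 3, and 0 to 5. The replicate block removed the neonatal Ldhb call and no other call of a member. It also removed the neonatal calls of Mdh1, Esrrg and Ppargc1b, and the call of Srsf3 in adult cells against fibroblasts. Upper glycolysis calls in adult cells against fibroblasts went from 4 to 7, and those over all genes from 3829 to 4811.

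With the titles' groups the neonatal differences became -0.35 for Aldoc, -0.22 for Pgk1, 0.52 for Pgam1, -0.92 for Pgam2, -1.44 for Eno3, -0.26 for Ldha and -0.30 for Ldhb, and the isoform differences -1.44 for Pgam2 over Pgam1, -0.041 for Ldhb over Ldha and -0.48 for Aldoc over Aldoa. The same groups gave 0.089 for Ldha in adult against neonatal cardiomyocytes, and -0.30 for Pgk1 and -0.17 for Ldha in adult cardiomyocytes against fibroblasts. This grouping exchanges arrays and so puts both source names in each neonatal group. Without both neonatal replicate 1 arrays, the neonatal difference was 0.17 for Pgam1 and -0.075 for Aldoc over Aldoa, and with averaged probe sets the latter was -0.48. With 1 array left out, Pkm ran from -0.64 to 2.07 between the neonatal cell types, -0.95 to 1.03 between adult and neonatal cardiomyocytes, and -0.61 to 2.11 against fibroblasts, and Aldoc over Aldoa from -0.10 to 0.91 between the neonatal cell types. The cause of the changes in the other settings was not tested.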
